A study of Mus musculus with 2 samples.

Results

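Scavenger and uptake receptors of macrophages were described here in single cells from RM-1 tumours given vehicle or RP-6306. The set was 9 genes picked by symbol from the 32285 genes listed: Mrc1, Stab1, Cd163, Msr1, Cd36, Folr2, Lyve1, Mertk and Axl. RM-1 is a mouse prostate cancer line, and it was injected subcutaneously into C57BL/6 mice. RP-6306 inhibits the kinase PKMYT1, and since it acts on the protein, no transcript level checks the treatment labels. Tumours were taken on day 10 of treatment, the genotype was labelled WT in both groups, and CD45+ cells sorted by flow cytometry were mixed with tumour cells at 3:1 before capture with the SeekOne DD 3′ kit, so the share of immune cells was set by the mixing. The design text speaks of 2 tumour-grafted mice, and there was 1 library for vehicle and 1 for RP-6306, so no difference below has a replicate check or a p-value.

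Scavenger receptors let macrophages take up modified lipoproteins, glycoproteins, haemoglobin complexes and dying cells and send them to the lysosome. MRC1, STAB1, FOLR2, LYVE1 and CD163 are used as markers of resident-like macrophages, which lie along vessels and in connective tissue, whereas MSR1 is carried by macrophages and monocytes more widely. MERTK and AXL are receptor tyrosine kinases that recognise phosphatidylserine on dying cells through the bridging ligands GAS6 and PROS1.

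The vehicle library held 17313 cell barcodes and 135415063 UMIs (unique molecular identifiers, each standing for 1 captured transcript), and the RP-6306 library 15909 barcodes and 158073632 UMIs. After filtering, 16082 and 14916 cells remained, and the median cell held 3117 and 2847 UMIs. The libraries shared 374 barcode sequences, which involved 1 and 3 of the macrophages described next, and leaving them out altered no call in those cells. Levels are a gene's UMIs per 1000000 UMIs of a class (CPM) with 95% exact Poisson intervals, and shares have exact Clopper-Pearson intervals. All intervals cover counting error only, not differences between tumours. A ratio is log2 of RP-6306 over vehicle on the CPM + 1 scale, its interval comes from an exact conditional binomial calculation without the added 1, and a gene counts as measured with at least 20 UMIs over both libraries.

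C1q-positive macrophage-like cells numbered 70 in vehicle and 135 in RP-6306, or 0.858% (0.669 to 1.08) and 1.5% (1.26 to 1.77) of named leukocytes. These shares depend on the clustering: at Leiden resolution 1.5 the class held 0.22% and 0.79%, and at 0.6 it held 0.46% and 1.12%. Their names came from markers and from clustering that left the 9 receptors out. C1qa, a complement subunit made by tissue macrophages, had a UMI in 80.0% and 76.3% of them. Csf1r, the receptor for CSF1, had one in 71.4% and 82.2%, and the tumour keratin Krt18 in 7.14% and 5.93%. The 2 markers of classical monocytes differed: Ly6c2 had a UMI in 2.86% and 4.44% of these cells, but Ccr2 in 42.9% and 54.1%. The class joined cluster M3 (30 and 93 cells, led by Ccl8, Gas6, Fcna and Ccl12) and cluster M8 (40 and 42 cells, led by Cpb2, Saa3 and Clec1a). Most macrophages of vehicle were thus in M8 and most of RP-6306 in M3, and the M3 cells were deeper, with medians of 13899 and 15137 UMIs against 5938 and 4970.5 in M8. Values are therefore also given within each cluster.

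Monocyte-like cells numbered 355 and 233, or 4.35% (3.92 to 4.81) and 2.59% (2.27 to 2.94) of named leukocytes, over 5 clusters. Ccr2, the chemokine receptor of classical monocytes, was seen in 76.1% and 77.7% of them, Ly6c2 in 42.5% and 37.3% and C1qa in 9.58% and 8.15%. Cluster M0 was led by Ace and Adgre4, genes of nonclassical monocytes, and M5 by interferon-response genes, with C1qa in 26.9% of its cells. Cluster M2 (41 and 101 cells, led by Spp1, Arg1 and Fn1) carried macrophage and monocyte markers alike and was left unnamed, and so was 29.4% of all kept cells in vehicle and 16.8% in RP-6306.

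Among named leukocytes, 8 of the 9 receptors had their highest CPM in the C1q-positive macrophage-like class, Lyve1 in RP-6306 only and Mrc1, Stab1, Cd163, Msr1, Folr2, Mertk and Axl in both libraries, whereas Cd36 was highest in monocyte-like or dendritic cell-like cells. B cell-like cells, which should lack most of these receptors, gave the background from free RNA at medians of 2158.5 and 1931.5 UMIs, against 9480.5 and 12344 in the macrophages. Shares were compared with each cell thinned to 2000 UMIs and shallower cells left out, which kept 62 of 70 and 121 of 135 macrophages and 2073 of 3390 and 1517 of 3360 B cell-like cells. At that depth, Mrc1 was seen in 71.4% and 81.9% of macrophages and in 0.534% and 1.16% of B cell-like cells. Stab1 was seen in 10.8% and 24.9% against 0.107% and 0.240%, and Mertk in 24.0% and 28.7% against 0.763% and 0.543%. Folr2 had no UMI in 3390 and 3360 B cell-like cells. All of these macrophage shares lay above the B cell-like ones.

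**Figure D1:**
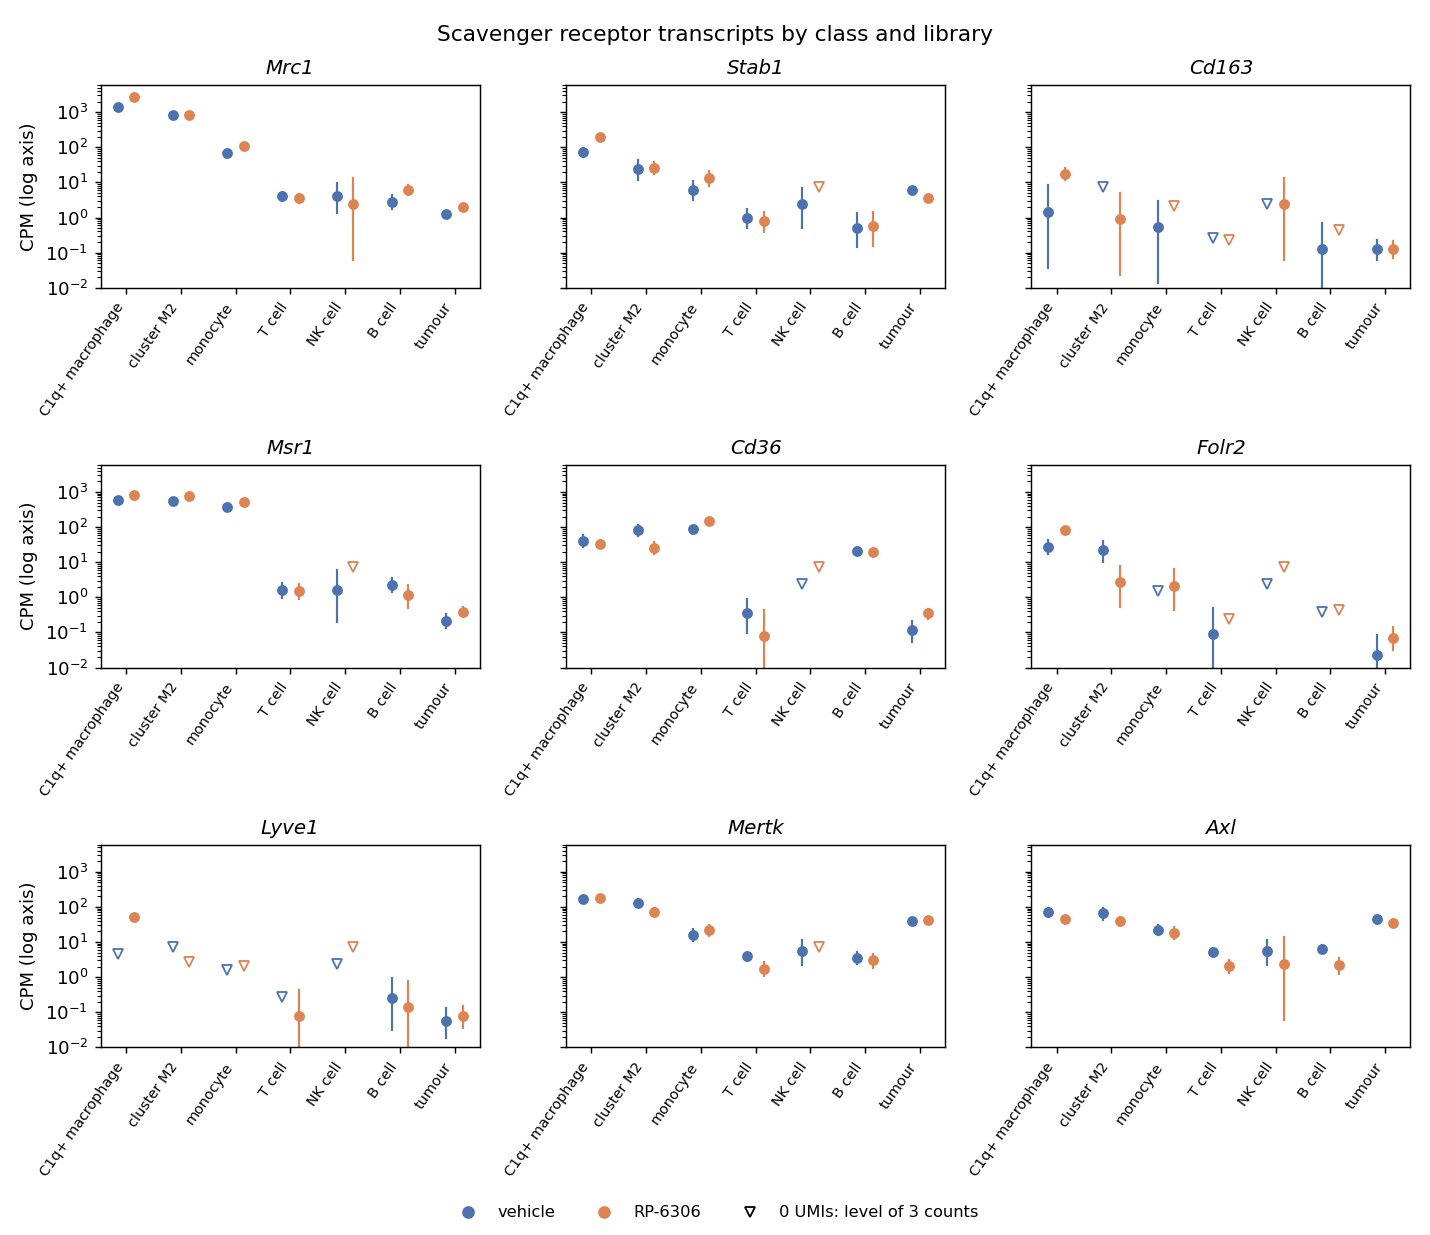
CPM of each receptor (log axis) in each class, vehicle and RP-6306 side by side, with bars for 95% Poisson intervals of the summed UMIs. Mrc1 and Stab1 stand highest in macrophage-like cells and Msr1 is also high in monocyte-like cells, whereas Mertk and Axl also appear in tumour-like cells.

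In C1q-positive macrophage-like cells, Stab1, Folr2, Cd163 and Lyve1 were at least 2-fold higher in RP-6306, and none of the 9 was 2-fold lower. Cd163 and Lyve1 passed the minimum of 20 UMIs only through RP-6306, so their calls follow from the filter and the counts and medians here are descriptions. The ratio was above 0 for 7 receptors and below 0 for Cd36 and Axl. Across all 8479 genes measured in these cells, 6.03% were at least 2-fold higher and 1.56% at least 2-fold lower. The median log2 ratio was 0.94 over the receptors and 0.20 over all genes. At equal depth (2000 UMIs per cell) a macrophage carried a mean of 1.93 of the 9 receptors in vehicle and 2.42 in RP-6306, and 7.66% and 5.12% of macrophages carried none. In M3 alone the same 4 receptors were at least 2-fold higher and none lower, against 6.58% and 1.64% of 7983 genes. In M8 alone 5 receptors were measured and none differed 2-fold, against 8.39% higher and 3.87% lower of 3848 genes. The mean number of receptors per macrophage was 2.22 and 2.53 in M3 and 1.66 and 2.08 in M8 at that depth. Without thinning it was 4.47 and 4.39 in M3 and 2.27 and 2.64 in M8. The share of thinned M8 cells with none was 10.2% and 11.4%.

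**Figure D2:**
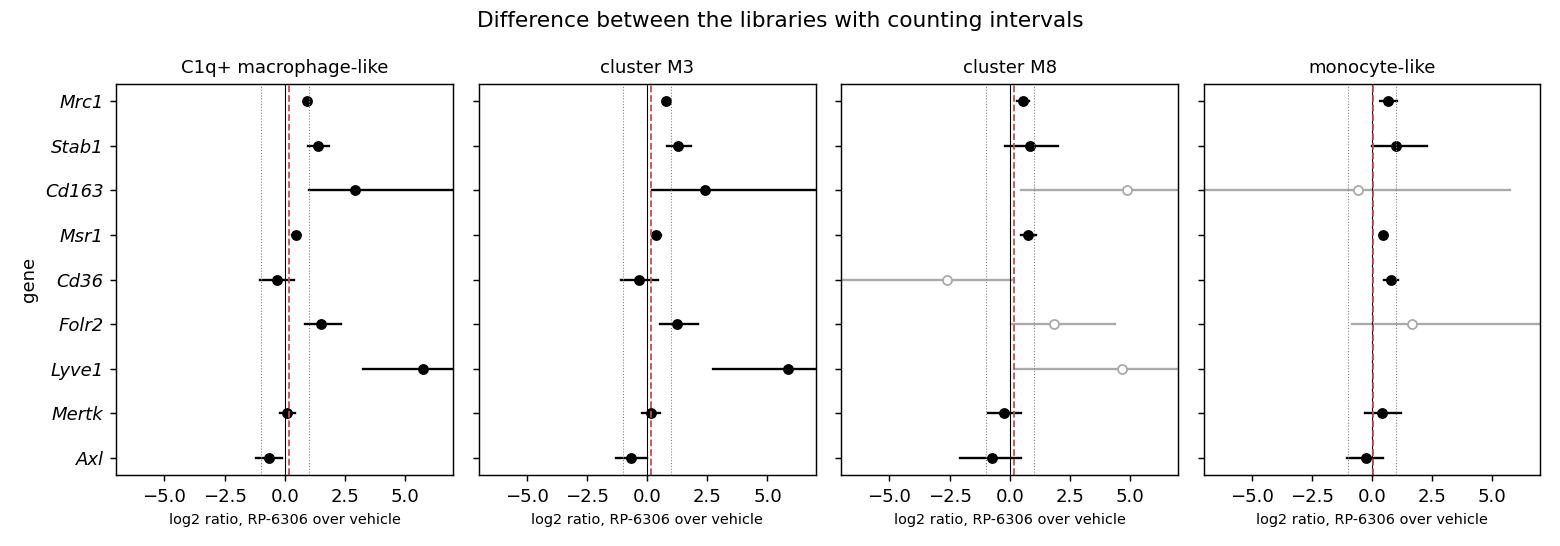
Log2 ratio of RP-6306 over vehicle for each receptor, with counting intervals, by class or cluster, and a dashed line at the median of all genes. In the macrophage class the points of Stab1, Folr2, Cd163 and Lyve1 lie beyond 1, Mertk is near 0 and Axl is below 0.

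Mrc1 (ENSMUSG00000026712, chr2:14229392-14332057, plus strand, GRCm38) encodes the mannose receptor CD206, which binds mannose- and N-acetylglucosamine-ended glycans. Stab1 (ENSMUSG00000042286, chr14:31139013-31168641, minus strand) encodes stabilin-1, which clears SPARC and acetylated lipoproteins. Axl (ENSMUSG00000002602, chr7:25757273-25788705, minus strand) encodes a phosphatidylserine-sensing kinase of the same family as MERTK. The bases before the start sites of these 3 genes are shown because Mrc1 and Stab1 were higher in RP-6306 macrophages and Axl was lower, and because their windows, alone among the members matched, hold GAGGAA, the core recognised by the myeloid factor PU.1. Windows are from RefSeq (build GRCm38.p6), 5′ to 3′ on the gene's strand, at chr2:14229164-14229391 for Mrc1, chr14:31168642-31168891 for Stab1 and chr7:25788734-25788983 for Axl, and capitals mark GAGGAA or its reverse complement TTCCTC.
Mrc1: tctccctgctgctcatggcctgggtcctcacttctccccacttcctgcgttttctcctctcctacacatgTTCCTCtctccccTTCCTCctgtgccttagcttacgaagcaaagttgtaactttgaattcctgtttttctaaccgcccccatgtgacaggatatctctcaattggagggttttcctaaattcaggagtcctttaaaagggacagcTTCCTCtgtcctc
Stab1: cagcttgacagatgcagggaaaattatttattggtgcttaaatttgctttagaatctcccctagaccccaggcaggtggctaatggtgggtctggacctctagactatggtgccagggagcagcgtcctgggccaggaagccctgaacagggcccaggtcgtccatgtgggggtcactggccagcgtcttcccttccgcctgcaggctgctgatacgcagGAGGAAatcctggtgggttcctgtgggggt
Axl: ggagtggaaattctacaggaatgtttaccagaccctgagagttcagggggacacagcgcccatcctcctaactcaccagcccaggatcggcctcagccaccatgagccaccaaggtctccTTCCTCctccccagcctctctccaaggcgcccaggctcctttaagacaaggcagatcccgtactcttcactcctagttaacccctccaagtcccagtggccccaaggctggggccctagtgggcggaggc
RefSeq windows were matched for 7 of the 9 receptors. Msr1 and Lyve1 had no entry. Mrc1 held 3 matches, whose first letters lay 180, 167 and 35 bases before the start site, Stab1 held 1 at 30 bases and Axl 1 at 130 bases. The RefSeq start site of Mrc1 is chr2:14229414, and the 22 bases before it, which GENCODE places in an exon, are not printed. A match on either strand was found in 23.3% of 32851 windows of 250 bases, so 3 of 7 genes is a description of these windows and not of binding. Mertk held 3 GC boxes (GGGCGG, found in 32.7% of windows), Cd36 held 2, and Mrc1 and Axl held 1 each. The MAF half-site TGCTGA (16.1% of windows) had 1 match in Cd36, in Stab1 and at each of the 2 start sites of Folr2, and the AP-1 site TGANTCA (6.75%) had 1 match at the second start of Folr2. CACGTG, the E-box of MITF and TFEB (6.02%), TATAAA (12.4%), the STAT6 site and the interferon response element had no match in any member's window. All motifs were searched on both strands.

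Mrc1 stood at 1436 CPM (1347 to 1529, 974 UMIs) in vehicle macrophages and at 2750.5 (2673 to 2829, 4797 UMIs) in RP-6306 macrophages. The intervals did not overlap, and the log2 ratio was 0.94 (0.84 to 1.04), a 1.91-fold difference. The median macrophage held 791 CPM of Mrc1 in vehicle and 1401 in RP-6306, but this median moves with the mix of the clusters: it was 927 and 2166 in M3 and 696 and 642 in M8. Without thinning, nearly the same shares of cells had an Mrc1 UMI, 87.1% and 89.6%. At equal depth one is expected in 44.3 of 62 vehicle and 99.1 of 121 RP-6306 macrophages, a higher share in RP-6306. In M3 the level was 1716 against 2986 CPM (log2 ratio 0.80), and in M8 it was 907 against 1321 (0.54), where 1 cell gave 28.5% of the RP-6306 UMIs. Outside macrophages, Mrc1 was at 99.0 and 146 CPM in the dendritic cell-like class (30 and 45 cells), at 67.8 and 108 in monocyte-like cells, and below 7 CPM in T, NK, B and tumour-like cells.

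Stab1 was at 73.7 CPM (50 UMIs) in vehicle macrophages and at 195 CPM (340 UMIs) in RP-6306 macrophages, a 2.62-fold difference with a log2 ratio of 1.39 (0.97 to 1.86). It was seen in 30% of vehicle and 46.7% of RP-6306 macrophages. In M3 the level was 85.7 against 212 CPM (log2 ratio 1.3, 0.82 to 1.83). Without thinning, 50% and 53.8% of M3 cells had a Stab1 UMI. At equal depth one is expected in 4.56 of 30 vehicle and 25.1 of 92 RP-6306 cells of M3, a higher share in RP-6306. In M8 the level was 51.1 against 93.2 CPM on 12 and 23 UMIs, and the interval of the ratio, 0.85 (-0.20 to 2.01), included 0. Stab1 was thus 2-fold higher in M3 and not in M8, and the difference between the clusters was not tested. Monocyte-like cells held 6.25 and 13.5 CPM of Stab1 and tumour-like cells 5.92 and 3.54.

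Folr2 (ENSMUSG00000032725, chr7:101839988-101857194, minus strand) encodes folate receptor beta, a folate-binding protein of resident-like macrophages. It was at 28.0 CPM (16.9 to 43.7, 19 UMIs in 10 cells) in vehicle and at 82.0 CPM (69.1 to 96.6, 143 UMIs in 43 cells) in RP-6306 macrophages. The intervals did not overlap, and the log2 ratio was 1.52 (0.85 to 2.32), a 2.86-fold difference. Within M3 the levels were 36.1 and 87.5 CPM (log2 ratio 1.25), and M8 held 3 and 12 UMIs, too few to count as measured. Outside this class Folr2 was sparse, with 0 and 3 UMIs in 355 and 233 monocyte-like cells, 9 and 3 in M2, and 2 and 8 in 3193 and 3402 tumour-like cells.

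Cd163 (ENSMUSG00000008845, chr6:124304656-124330527, plus strand) encodes the receptor for haptoglobin-haemoglobin complexes. It had 1 UMI in 1 of 70 vehicle macrophages and 31 UMIs in 14 of 135 RP-6306 macrophages, or 1.47 and 17.8 CPM. The log2 ratio was 2.92, and its counting interval ran from 1.01 to 8.94. A single cell gave 25.8% of the RP-6306 UMIs. In M3 the ratio was 2.39 (0.21 to 8.19) on 1 and 24 UMIs, and M8 held 0 and 7 UMIs. Cd163 was sparse elsewhere, with 1 and 0 UMIs in monocyte-like cells and 11 and 14 in tumour-like cells.

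Lyve1 (ENSMUSG00000030787, chr7:110850607-110863239, minus strand) encodes a hyaluronan receptor of resident macrophages and of lymphatic endothelium. It had no UMI in 70 vehicle macrophages, for which 3 counts over 70 cells give an upper limit of 4.29% on the share of cells with a UMI (not of cells expressing the gene), and 92 UMIs in 11 of 135 RP-6306 macrophages (8.15%). Against a floor of 3 counts in the vehicle class (4.42 CPM), the RP-6306 level of 52.8 CPM was 11.9-fold higher, and within M3 8.49-fold higher. These values leave out the counting error of the RP-6306 level. The counting interval of the log2 ratio began at 3.25 in the class and at 2.76 in M3, with no upper limit. One cell carried 33.7% of the Lyve1 UMIs. Lyve1 had no UMI in monocyte-like cells or in M2 of either library. Of 6 lymphatic endothelial markers, which summed to 36.9 and 48.7 CPM in the macrophage class, Prox1, Ccl21a and Mmrn1 were at 0 in both libraries and Flt4 and Reln in vehicle only.

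The 11 macrophages with a Lyve1 UMI were compared, as a description, with the 124 of RP-6306 without one. They were deeper (medians of 18711 and 11802.5 UMIs), and 9 lay in M3 and 2 in M8. Their Stab1 level was 445 CPM against 159, their Folr2 level 231 against 60.4, and their Mrc1 level 4634 against 2478. Cbr2, a carbonyl reductase of resident macrophages, was at 249.6 against 19.7 CPM, and Fcna, which encodes ficolin A, at 581 against 117. Ccr2 went the other way, at 27.2 against 329 CPM, while Axl was at 36.3 against 47.3. Timd4 and Vsig4, markers of other resident macrophages, had no UMI in the 11 cells. With these cells left out, Stab1 (log2 ratio 1.10), Folr2 (1.08) and Cd163 (2.70) were still at least 2-fold higher in RP-6306, and the median over the receptors was 0.60. The 11 cells were defined by Lyve1 itself, so its own level in them is no result.

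**Figure D3:**
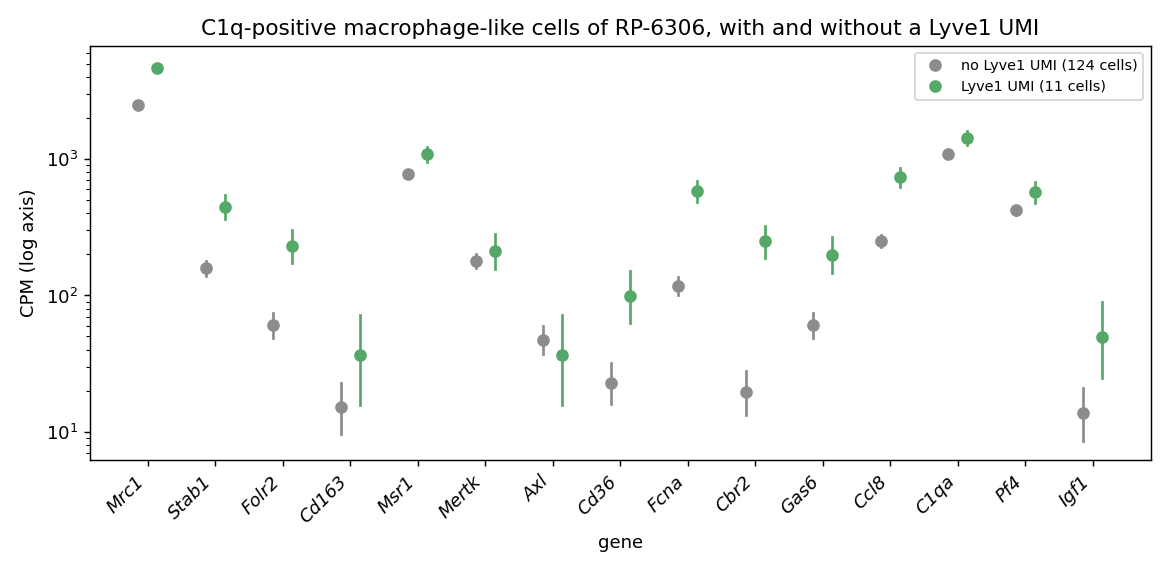
CPM (log axis) of receptors and resident macrophage genes in RP-6306 macrophages with a Lyve1 UMI (11 cells) and without one (124 cells), with 95% Poisson intervals. Stab1, Folr2, Cbr2 and Fcna are higher in the Lyve1 cells, and the intervals of Axl overlap.

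Several of these receptors sat in the same cells of RP-6306. Of its 43 macrophages with a Folr2 UMI, 37 also had Stab1, 12 had Cd163 and 10 had Lyve1. At 2000 UMIs per cell, Stab1 was seen in 51.6% of macrophages with Folr2 and in 20.9% of those without. Folr2 was seen in 49.8% of those with Cd163 and in 11.4% of those without, but only 5.21 cells with Cd163 are expected. Axl showed no such split by Folr2, at 7.63% and 7.55%. In M3 alone Stab1 was seen in 51.9% of cells with Folr2 and in 23.6% of those without. There Folr2 was seen in 24.2% of cells with Cd163 and in 12.6% of those without, on 2.43 expected cells with Cd163. In vehicle, Stab1 was seen in 10.3% of macrophages with Folr2 and in 10.8% of those without, but only 2.65 cells with Folr2 are expected there at that depth, so a like pattern was not detectable.

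Msr1 (ENSMUSG00000025044, chr8:39581685-39642673, minus strand) encodes the class A scavenger receptor that takes up modified lipoproteins. Macrophages held 593 CPM (536 to 654, 402 UMIs) in vehicle and 822 CPM (780.2 to 866, 1434 UMIs) in RP-6306. The log2 ratio was 0.47 (0.31 to 0.64), and 81.4% and 92.6% of cells had a UMI. M8 showed 549.6 and 936 CPM (0.77) and M3 616 and 803 (0.38). Unlike the receptors above, Msr1 was also abundant in monocyte-like cells, at 386 CPM (358 to 414) in vehicle and 532 (495 to 572) in RP-6306, a log2 ratio of 0.46 (0.32 to 0.61). The monocyte clusters differed: M1 held 410.5 and 704 CPM and M10 393 and 691, whereas M0 held 199 and 190.3 and M4 447 and 467.

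Cd36 (ENSMUSG00000002944, chr5:17781690-17888801, minus strand) encodes a class B scavenger receptor for oxidised lipoproteins and long-chain fatty acids. Macrophages held 41.3 CPM (28 UMIs) in vehicle and 32.7 CPM (57 UMIs) in RP-6306. The interval of the log2 ratio, -0.33 (-1.01 to 0.37), included 0, and single cells gave 35.7% and 38.6% of the UMIs. M3 held 47.4 and 37.4 CPM (-0.33) and M8 held 7 and 1 UMIs. The highest Cd36 level among myeloid clusters was in the nonclassical monocyte cluster M0, at 287 CPM in vehicle and 535 in RP-6306, with a UMI in 29.5% and 40.3% of its cells. Over all monocyte-like cells the level was 88.6 against 152 CPM (log2 ratio 0.77, 0.48 to 1.08). B cell-like cells also held Cd36, at 21.5 and 19.7 CPM with a UMI in 3.39% and 2.86% of cells, whereas T cell-like cells held 0.357 and 0.0788 CPM.

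Mertk (ENSMUSG00000014361, chr2:128698956-128802894, plus strand) was at 173 CPM (143 to 207, 117 UMIs) in vehicle macrophages and at 184 CPM (164 to 205, 321 UMIs) in RP-6306 macrophages. Its log2 ratio was 0.09, and the interval ran from -0.22 to 0.41. It was 0.15 (-0.22 to 0.53) in M3 and -0.22 (-0.90 to 0.46) in M8, with opposite signs and both intervals including 0. Axl was lower in RP-6306, at 72.2 CPM (53.5 to 95.5, 49 UMIs) in vehicle and 45.9 CPM (36.4 to 57.1, 80 UMIs) in RP-6306, a 1.56-fold difference with a log2 ratio of -0.64 (-1.19 to -0.11). Axl was at 74.4 and 46.8 CPM in M3 and at 68.2 and 40.5 in M8, so the ratio was below 0 in both clusters, on 16 and 10 UMIs in M8. The interval of Mertk thus included 0 and that of Axl did not, and the difference between the 2 genes was not tested. A lower Axl level was not particular to macrophages. Its log2 ratio was -1.24 (-2.52 to -0.72) in B cell-like cells and -1.06 (-2.11 to -0.70) in T cell-like cells, at levels below 7 CPM. In monocyte-like cells the interval (-1.04 to 0.46) included 0. Whether these differences are related was not tested.

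Tumour-like cells carried Mertk and Axl above the level of B cell-like cells. Mertk was at 40.9 and 42.5 CPM and Axl at 45.2 and 35.5 CPM (log2 ratio -0.34, -0.41 to -0.28) in 3193 and 3402 tumour-like cells. With cells thinned to 2000 UMIs, Mertk was seen in 7.46% and 7.79% of them and Axl in 9.11% and 7.43%, against 0.763% and 0.543% for Mertk and 1.35% and 0.305% for Axl in B cell-like cells. None of the 7 receptors measured in tumour-like cells differed 2-fold, against 0.0458% of 17465 genes higher and 0.218% lower. Cd163, Msr1 and Cd36 were below 1 CPM in both libraries, where a ratio with the added 1 CPM cannot reach 2-fold. The count therefore does not cover them, and the shares of all genes have the same limit. Without the added 1, the log2 interval was 0.57 to 2.77 for Cd36 (10 and 39 UMIs), 0.007 to 1.68 for Msr1 and -1.26 to 1.27 for Cd163.

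**Figure D4:**
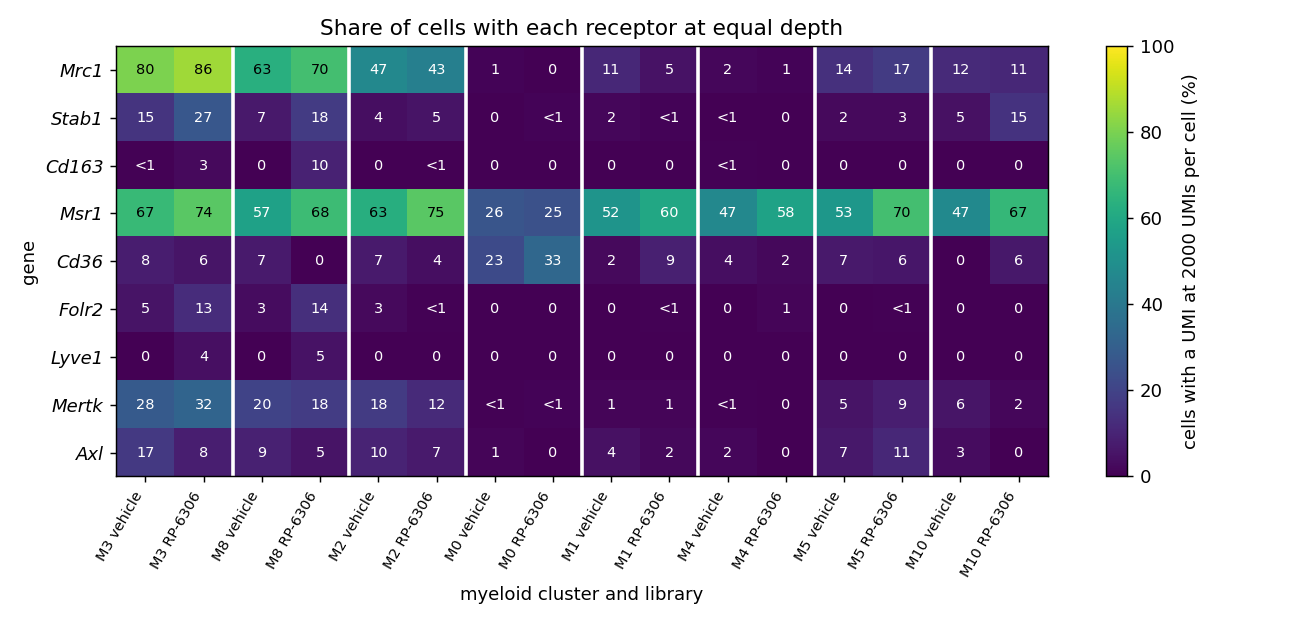
Share of cells with at least 1 UMI of each receptor, in percent at 2000 UMIs per cell, for each myeloid cluster (columns, vehicle and RP-6306). Mrc1 fills most cells of M3 and M8 and Msr1 spreads over macrophages and monocytes, while Cd36 peaks in M0 at 22.6% and 33.4%.

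In monocyte-like cells, 6 receptors were measured and none differed 2-fold in either direction, against 1.24% of 8542 genes higher and 1.81% lower. Their median log2 ratio was 0.56, against 0.05 over all genes. Stab1 lay at the 2-fold line (log2 ratio 1.00) on 12 and 19 UMIs, 3 and 11 of them in M10, and 13 of 19 other processing choices put from 1 to 3 receptors, mostly Stab1, past it. Mrc1 was at 67.8 CPM in vehicle and 108 in RP-6306 (log2 ratio 0.67, 0.33 to 1.02), but its clusters disagreed. In M5, the interferon-led cluster in which C1qa was seen most often, Mrc1 was at 131 and 398 CPM, and in M1 at 98.3 and 31.0. Without M5 the ratio over the remaining monocytes was -0.98, the Axl ratio was -1.76, and the median over the receptors was 0.047. Mertk was at 16.2 and 22.0 CPM (0.43, -0.32 to 1.21) and Axl at 22.4 and 18.5 CPM (-0.27, -1.04 to 0.46), and both intervals included 0. Over the other processing choices the Mertk ratio ran from -2.72 to 1.60, the Stab1 ratio from -0.20 to 1.39 and the Axl ratio from -1.76 to 0.35.

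In the unnamed cluster M2, Mrc1 was at 850.1 CPM in vehicle and 830.1 in RP-6306 (log2 ratio -0.03, -0.21 to 0.15) and Stab1 at 24.3 and 26.5. Msr1 was at 556 and 757 CPM (0.44), close to its ratio in macrophages. Cd36 was 82.6 against 25.6 CPM (log2 ratio -1.65, -2.46 to -0.93), Mertk 131 against 73.3 and Axl 65.6 against 38.9 (-0.74). A single vehicle cell gave 44.1% of its Cd36 UMIs. Cd36 was the 1 receptor of 6 measured in M2 that was at least 2-fold lower, against 2.49% of 7001 genes, and none was 2-fold higher, against 7.06%. Whether M2 and the macrophage class differ in these ratios was not tested.

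Genes that work with the receptors were counted in the macrophage class from lists chosen for their roles. Of 15 measured genes of tissue-resident macrophages, 7 were at least 2-fold higher, against 6.03% of all genes, and none lower, against 1.56%. Their median log2 ratio was 0.92. Cbr2, Ednrb and Ltc4s passed the UMI minimum only through RP-6306, so the count is partly fixed by it. The 7 were Cbr2 (5.90 and 48.7 CPM), Ednrb, Fcna (44.2 and 176), Ltc4s, Gas6, Selenop and F13a1 (599 and 1238). Ednrb, an endothelin receptor, had 3 UMIs in vehicle and 54 in RP-6306, a log2 ratio of 2.56 (1.18 to 5.13). Fcna and Gas6 are also leading genes of M3, which made up more of the RP-6306 macrophages, so these counts are not separate from the cluster mix. In M3 alone 6 of 15 were at least 2-fold higher, against 6.58% of all genes. In M8 1 of 9 was higher, against 8.39%, and 1 was lower, against 3.87%. In monocyte-like cells it was 1 of 7, against 1.24% of all genes, with a median of -0.04.

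Ligands and partners of uptake gave smaller numbers, to be read beside the 6.03% of all genes that were 2-fold higher in the class and the 1.56% lower. Of 22 measured genes of apoptotic cell uptake, 1 was 2-fold higher, Gas6, the ligand of MERTK and AXL, at 32.4 and 78.0 CPM (log2 ratio 1.24, 0.61 to 1.99). Within the clusters the Gas6 ratio was below the 2-fold line, at 0.90 in M3 and 0.79 in M8. Of the 22, 1 was 2-fold lower in the class, Tgm2, a transglutaminase, at 180 and 81.4 CPM. Gas6 was also the 1 of 12 on the list of ligands and signalling of MERTK and AXL, where Adam17, a sheddase, had a log2 ratio of 0.76, with 1.04 in M3 and -0.48 in M8. The medians of these lists were 0.23 and 0.17, next to 0.20 for all genes. Of 10 other scavenger and endocytic receptors, 1 was 2-fold higher, Colec12, on 3 and 22 UMIs, and the median was 0.08. Colec12 passed the UMI minimum mainly through RP-6306. Clec10a, the galactose lectin, had a log2 ratio of 0.55, with 0.64 in M3 and -0.72 in M8, and Scarb1, the HDL receptor, had -0.35.

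Pathways downstream of the receptors were mixed. Among all genes of the class, 6.03% were 2-fold higher and 1.56% lower. Of 14 haem and iron genes, Slc40a1, the iron exporter ferroportin, was at 20.6 and 52.8 CPM (log2 ratio 1.31, 0.53 to 2.28) and Hp, haptoglobin, at 5.90 and 21.8 CPM on 4 and 38 UMIs. No other was 2-fold different, and the median was 0.17. None of 22 lipid-handling genes differed 2-fold (median 0.09), and Spp1, osteopontin, had opposite ratios in M3 (-2.09) and M8 (2.95). Of 9 folate genes, Shmt1 (3 and 29 UMIs) and Shmt2 (10 and 54 UMIs) were 2-fold higher and Fpgs lower on 10 and 10 UMIs (median 0.27). The Shmt2 log2 ratio was 1.02 in the class, with 0.37 in M3 and 5.38 in M8. Of 10 genes that handle hyaluronan and mannose ligands, Tnfaip6 was 2-fold higher on 1 and 21 UMIs (median 0.35). Hp, Shmt1 and Tnfaip6 passed the UMI minimum mainly through RP-6306, so their calls are partly fixed by it.

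Genes of alternative activation did not go one way. The counts in the class stand beside 6.03% of all genes 2-fold higher and 1.56% lower. Of 18 measured, 4 were at least 2-fold higher (Ccl17, Il10, Chil3 and Egr2) and 4 at least 2-fold lower (Vegfa, Pdcd1lg2, Ccl24 and Tgm2), with a median of 0.22. Ccl17, Il10 and Chil3 had 1, 4 and 6 UMIs in vehicle and passed the UMI minimum mainly through RP-6306. The count of higher genes is thus partly fixed by that minimum. In M3 alone, of 17 measured, 1 was higher, against 6.58% of all genes, and 4 were lower, against 1.64%, with a median of -0.01. Vegfa, the vascular growth factor, was at 139 and 28.7 CPM (log2 ratio -2.23, -2.80 to -1.76). Ccl24, an eosinophil chemokine, was at 582 and 184 CPM, with a log2 ratio of -2.43 in M3 and 0.29 in M8. Of 24 macrophage transcription factors, 1 was 2-fold higher, Id3, on 5 and 31 UMIs (median 0.04). Id3 too passed the UMI minimum mainly through RP-6306. Spi1, which encodes PU.1, was at 224 and 329 CPM (0.55, 0.29 to 0.82). Of 15 genes of CSF1, IL4, IL10, TGFB and glucocorticoid signalling, Il10 was 2-fold higher (median 0.29), and Il4ra had 0.67, with 0.65 in M3 and -1.04 in M8.

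Marker sums other than the receptors also differed in the macrophage class. The 12 macrophage markers summed to 5429 CPM in vehicle and 6779 in RP-6306, the 10 monocyte markers to 1606 and 2628, and the 7 platelet markers to 386 and 514. F13a1, counted above as a resident macrophage gene, is also one of the monocyte markers. Pf4, which is also on the list of tissue-resident macrophage genes, held most of the platelet sum, at 363 and 441 CPM. Of the other platelet markers, Ppbp was at 8.85 and 72.2 CPM, and Gp9 and Gp1bb were at 0 in both. The 8 tumour markers summed to 22.1 and 26.9 CPM, with Krt7, Perp and Cldn4 at 0 in both. The 18 genes of dissociation stress, which include immediate early and heat-shock genes, summed to 5947 and 8791 CPM. Of 16 measured, 14 had a ratio above 0, with none at 2-fold (median 0.48). The part of these markers, and of the cluster mix, in the receptor ratios was not tested. With M3 and M8 given equal weight, Stab1 (1.14), Folr2 (1.44), Cd163 (3.45) and Lyve1 were still at least 2-fold higher, Mrc1 had 0.71 and Axl -0.70.

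Over 6 classes and both libraries (12 points), the genes whose log2(CPM + 1) was most like that of a receptor were listed as a description. The points share their libraries, and how much each class set the spread was not measured. Mrc1 was most like Ccl12 (Pearson r = 0.998), Rab3il1 and C1qa, and Stab1 most like Ccl7 (0.971), Hebp1 and Slc40a1. Folr2 was most like Npl (0.988), Gas6 and Slc40a1, and Mertk most like Rusc2 (0.982), Ccl7 and Anpep. Msr1 was most like F13a1 (0.997), Gm5150 and Lyz2, whereas Cd36 was most like Gm6377 (0.992) and BC028528 and Axl most like Aldoc (0.986), Dock1 and Plxna1. Cd163 and Lyve1 had few UMIs outside RP-6306 macrophages, and their best matches were weaker, both with Fancg (0.863 and 0.876), followed by Rnaseh2b for both and by C2cd2l and Ppbp.

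**Figure D5:**
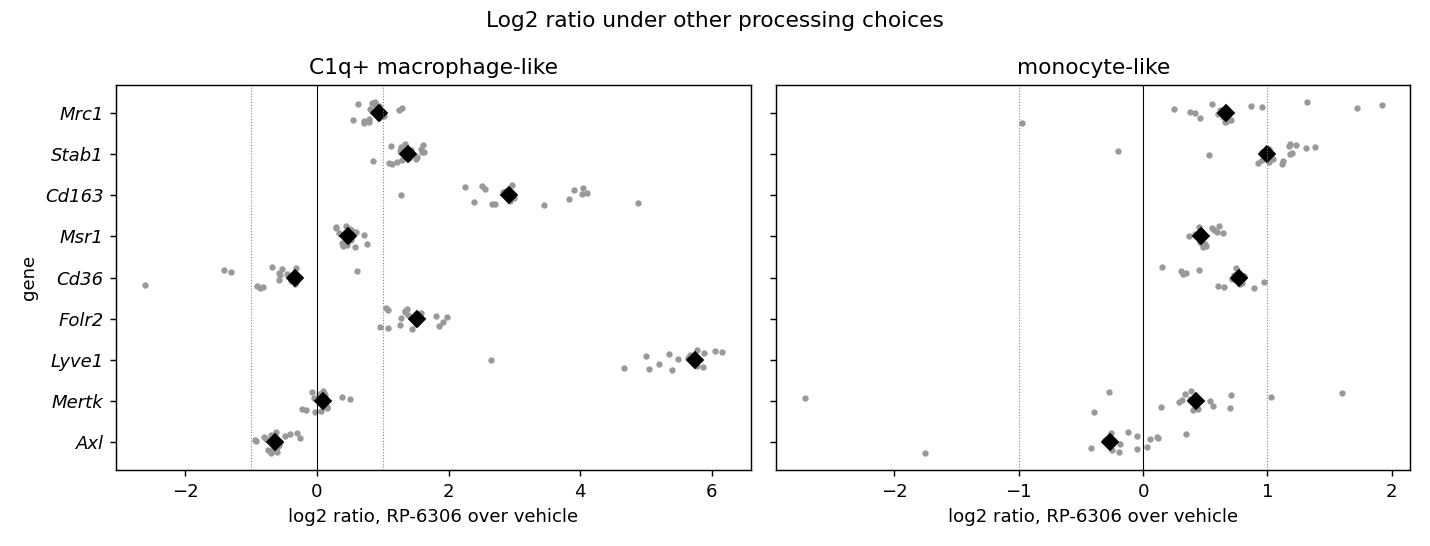
Log2 ratio of each receptor in macrophage-like and monocyte-like cells under the processing used (black diamonds) and under each alternative (grey points). In macrophages Stab1, Cd163, Msr1, Folr2, Lyve1 and Mrc1 stay above 0 and Axl below 0 under every alternative that gives a value. For Lyve1 the alternative without the Lyve1 cells gives none. In monocytes Mrc1, Stab1, Mertk and Axl cross 0.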

How the data were processed

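Single-cell RNA sequencing gave 1 library of RM-1 tumour cells and sorted CD45+ cells for vehicle and 1 for RP-6306. The deposited matrices hold UMI counts per gene and cell barcode. The submitters' processing notes name Cell Ranger 2.1.1 and mm10, and the settings are not given in the sources used here. No column belonged to another sample.

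Kept cells had 500 UMIs or more, 300 genes or more and a mitochondrial share of 15% or less. Scrublet's automatic threshold marked 1 and 0 cells, too few to have worked, so the top 6% of scores per library (1026 and 952 cells) were removed. Cells were clustered in scanpy 1.11.5 (2000 variable genes without the 9 receptors, 30 components, 15 neighbours, Leiden resolution 1), and myeloid cells were clustered again. Clusters were named from marker lists, with no deposited cell annotation used. UMIs were summed per class and library. With 1 library per group no test was made, and a gene was called at 2-fold with at least 20 UMIs. Thinned shares are exact hypergeometric probabilities at 2000 UMIs per cell. The calculations were tested on simulated data.

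The receptors, gene lists, markers and the rule for named genes were chosen with earlier results of these data known. The rule names all 9 receptors, the 2 highest and 2 lowest genes of each list by log2 ratio with at least 50 UMIs, and the 3 genes most like each receptor, of which some are not reported here. Other list genes at 2-fold, and genes described in the Lyve1 cells, were chosen after their values were seen. Gene positions come from GENCODE M21 (GRCm38), in which 32158 of 32285 identifiers were found. Alternatives covered clustering, doublets, depth, scaling, pseudocount, filters, free RNA and single cells.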

Additional observations from a re-analysis of the deposited data

How the results depend on the processing

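In C1q-positive macrophage-like cells 22 alternatives were run, 15 planned and 7 chosen after seeing the data (M3 alone, M8 alone, M2 added, shared barcodes out, Lyve1 cells out, equal cluster weight, T cell-like background subtracted). The log2 ratio of Stab1 ranged from 0.85 to 1.63, Mrc1 from 0.54 to 1.29, Folr2 from 0.96 to 1.97, Cd163 from 1.28 to 4.88, Lyve1 from 2.65 to 6.15 (21 alternatives), Msr1 from 0.28 to 0.77, Axl from -0.94 to -0.26, Mertk from -0.22 to 0.50 and Cd36 from -2.61 to 0.61. The count of 4 receptors at 2-fold became 2 (Stab1 and Folr2) with at least 100 UMIs per gene, 0 in M8 alone, where fewer genes were measured, 3 with M2 added (without Folr2) or without the Lyve1 cells, and 5 (with Mrc1) with thinned cells or with the top cell of each gene left out. The count of 0 lower became 1 (Cd36) with no removal of doublets and 1 with at least 1000 UMIs per cell. The median of 0.94 became 0.62 at resolution 1.5, 0.80 with median-of-ratios size factors, which move the median of all genes from 0.20 to 0.07, 1.24 with thinned cells, 0.70 with at least 100 UMIs per gene, 0.80 in M3 alone, 0.54 in M8 alone, 0.71 with M2 added, 0.60 without the Lyve1 cells and 0.71 with equal cluster weight. A gate on each cell's own C1q UMIs gave 119 and 184 cells and also 4 calls, Mrc1, Stab1, Folr2 and Lyve1, with Cd163 under the UMI minimum.

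In monocyte-like cells 19 alternatives were run, 4 of them chosen after seeing the data. The count of 0 higher became 3 at resolution 1.5 and with at least 1000 UMIs per cell, 2 with the receptors among the variable genes, and 1 at resolution 0.6, with no removal of doublets, with the top 12% of doublet scores removed, with thinned cells, with the mean over cells, with at least 1 UMI per gene, with B cell-like or T cell-like CPM subtracted, without shared barcodes and without M5. Without M5, 1 receptor (Axl) was 2-fold lower, the median went from 0.56 to 0.047 and the Mrc1 ratio reversed to -0.98. The cause of these moves was not tested.

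The macrophage share became 0.46% in vehicle and 1.12% in RP-6306 at resolution 0.6, and 0.22% and 0.79% at resolution 1.5. The monocyte share became 5.12% and 3.03% at resolution 0.6, and 3.68% in RP-6306 with the receptors among the variable genes. No paired analysis was possible because each group has 1 library and no test was made, and for the same reason no replicate could be left out. Depth limits Cd163, Lyve1 and Folr2 in vehicle most, at 1, 0 and 19 UMIs.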

Other observations

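Some myeloid cells outside the named classes carried the receptors. Cluster M11 (11 cells in vehicle and 26 in RP-6306), which held T cell and myeloid markers together and was left unnamed, had Mrc1 at 114 and 1849 CPM, Stab1 at 20.8 and 134 CPM and Msr1 at 239 and 853 CPM, and 14 Lyve1 UMIs in 2 of its RP-6306 cells. Cluster M6 (3 and 92 cells), with tumour and macrophage markers together, had Mrc1 at 205 CPM, Msr1 at 67.5 CPM and no UMI of Folr2, Lyve1 or Cd163 in RP-6306, and 1 cell gave 51.0% of its Mrc1 UMIs there. The neutrophil-like class (49 and 39 cells) had no UMI of Mrc1, Stab1, Cd163, Cd36, Folr2 or Lyve1 in either library.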
